A study of Mus musculus with 24 samples.

Results

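The collagen and extracellular matrix genes of mouse epididymal white adipose tissue were examined as a set of 40 genes named by symbol: fibrillar collagens, collagen VI chains, basement membrane components, interstitial glycoproteins and proteoglycans, elastic fibre genes, crosslinking oxidases, matricellular proteins with the TGF-beta axis, matrix metalloproteinases and their inhibitors. Probes were matched to them through accession numbers and used if 6 or more of the 24 arrays showed a Cy5 signal well above background. By that rule 39 of the 40 genes were measured, through 52 of 54 probes, among 22322 features (13442 named genes and 8880 probes with no gene name). The gene left unmeasured was Tnc (tenascin C), whose 2 probes were well above background on 1 and 0 of the 24 arrays. Mmp3 was well above background on 21 arrays and the other 38 genes on all 24.

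The 24 arrays held RNA of 12 No NR and 12 Ctrl NR mice. All were C57BL/6JRcc males of 28 or 29 weeks, housed singly, on a semi-synthetic diet with 40% of its energy from fat and a low tryptophan content (0.115%). The No NR diet contained 0 mg and the Ctrl NR diet 30 mg nicotinamide riboside (NR) per kg, given for 18 weeks. NR is a form of vitamin B3, which cells use to make NAD+. All mice were killed after a restricted meal, a fast and a short refeeding. Cy5 carried the cRNA of 1 mouse and Cy3 a common reference pool, which also contained other diet groups and 4 female samples. All values below are log2 Cy5/Cy3 ratios of a mouse against that pool, so 0 is the level of the pool and higher values mean more RNA than in the pool. Levels were not compared between genes, since each probe has its own brightness.

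Extracellular matrix surrounds every adipocyte. Fibrillar collagens form the tensile fibres between cells, collagen VI forms beaded filaments that are abundant around fat cells, and collagen IV with laminins, nidogen and perlecan builds the basement membrane on which adipocytes and capillaries rest. Lysyl oxidases crosslink the fibres, metalloproteinases cut them, and TIMP proteins inhibit the metalloproteinases. Stromal fibroblasts and progenitors make most interstitial collagen in fat, TGF-beta is a main inducer of its synthesis, and macrophages secrete both TGF-beta and matrix proteases. In obesity the fat pad accumulates macrophages and interstitial matrix.

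Between 34.5% and 50.7% of an array's spots were well above background (median 44.7%), and no array pair correlated below -0.185 over all probes. The arrays lay on 5 slides, each scanned in 1 run and each holding both diets. Of 24 listed adipocyte markers, 24 were well above background on every array, against 1 of 14 epididymis and testis markers. The adipocyte markers did not contradict the tissue label. Of the 14 epididymis and testis markers 6 were measured. Their mean ran from -1.72 to 0.75 in No NR and from -1.44 to 1.99 in Ctrl NR mice. It was highest in Ctrl NR mice 108 (1.99) and 77 (1.20). Uneven carry-over of other tissue was not tested. RNA came from the whole fat pad, so fewer cells of a type and less RNA per cell cannot be told apart.

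The promoters of 4 members are shown, with the short stretch where the starts of a further pair, Col4a1 and Col4a2, overlap. With diet means removed, the closest pairs across mice were Tgfb1 with Mmp14 (r = 0.934) and Tgfb1 with Timp1 (0.923). Mmp14 with Timp1 had 0.842. Col3a1, not shown, was closer to Timp1 (0.900). Timp3 varied against Tgfb1 (-0.491), Mmp14 (-0.459) and Timp1 (-0.587) under loess, and more strongly against Lum (-0.713). Each of the first 4 sequences is the 120 bases before the transcription start in RefSeq (GRCm38.p6), given 5′ to 3′ on the strand of the gene. In those 4, capitals mark every match to CCAAT or GGGCGG, searched on both strands. The CCAAT matches can therefore also read ATTGG, and the GGGCGG matches CCGCCC. Overlapping matches run together in capitals.
Tgfb1, transforming growth factor beta 1, chr7:25686882-25687001, plus strand: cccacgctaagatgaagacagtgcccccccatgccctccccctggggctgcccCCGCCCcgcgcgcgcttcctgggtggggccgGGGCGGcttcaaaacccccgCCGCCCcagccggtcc
Mmp14, the membrane-bound matrix metalloproteinase 14, chr14:54431478-54431597, plus strand: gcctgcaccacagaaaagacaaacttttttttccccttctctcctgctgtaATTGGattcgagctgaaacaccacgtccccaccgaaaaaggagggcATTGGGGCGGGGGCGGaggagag
Timp1, chrX:20870046-20870165, plus strand: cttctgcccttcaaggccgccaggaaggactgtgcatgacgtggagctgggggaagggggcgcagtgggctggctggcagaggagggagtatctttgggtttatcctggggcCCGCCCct
Timp3, chr10:86300292-86300411, plus strand: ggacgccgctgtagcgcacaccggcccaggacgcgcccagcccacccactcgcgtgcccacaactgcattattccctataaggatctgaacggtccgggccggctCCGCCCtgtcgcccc
Col4a1 and Col4a2, the 22 bases in which their first exons overlap on opposite strands, given with no capitals, chr8:11312805-11312826, plus strand: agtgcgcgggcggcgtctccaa

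GGGCGG occurred in all 4 promoters, with 3 matches in Tgfb1, 2 in Mmp14 and 1 each in Timp1 and Timp3. CCAAT occurred 2 times in Mmp14 and in none of the other 3. The 25 member genes found in the promoter table had 29 starts. Of these starts 13 carried GGGCGG, against 26.5% of all 32851 promoters. CCAAT was present in 4 of the 29 starts, against 21.3% of all promoters. TATAAA was present in 3, against 6.34% of all, and TGANTCA, the letters of an AP-1 site, in 2, against 3.41% of all. GGGCGG thus stood in the promoter of Timp3 and in those of the other 3 printed genes, against which Timp3 varied under loess. Timp3 varied more strongly against members whose promoters are not printed, among them Lum (-0.713) and Mmp2 (-0.702). Col3a1, which varied with Timp1 (0.900), had no GGGCGG match in the same stretch of its promoter. Whether shared letters go with shared variation was not tested. A match is a description of these letters and not evidence of binding.

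No feature on the array differed between No NR and Ctrl NR mice at an adjusted p under 0.05 (limma, Benjamini-Hochberg over 22322 features, lowest adjusted p 0.0573), and no member did. Without adjustment, 13.7% of features had a limma p under 0.05, with 6.69% higher and 7.00% lower in No NR mice. Among the members, 4 of 39 were higher at that level (Dcn, Col6a3, Fn1 and Lama2) and 2 were lower (Eln and Col18a1), a share near the background. In all, 24 members had a higher and 15 a lower mean in No NR mice. Their median log2 difference was 0.05, against -0.01 over all features, and it became -0.09 when arrays were centred on their median in place of loess, where that of all features was -0.05.

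**Figure D1:**
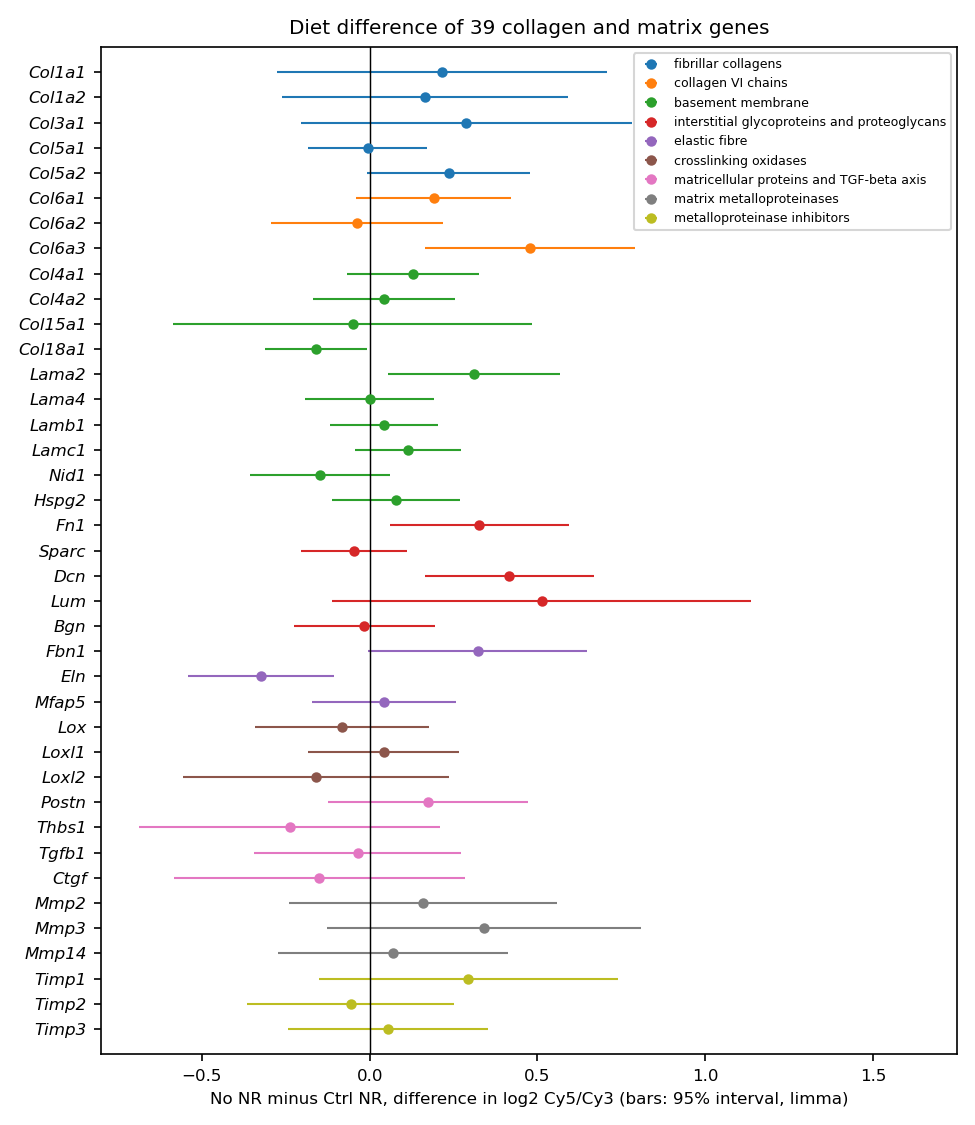
Difference in log2 Cy5/Cy3, No NR minus Ctrl NR, for the 39 measured matrix genes, 12 mice per diet (fewer where a spot was an outlier). Points are limma estimates, bars are 95% intervals and colours are roles. The intervals of Dcn, Col6a3, Fn1, Lama2, Eln and Col18a1 do not cross 0, and no member passed an adjusted p of 0.05. With median centring in place of loess no member had an unadjusted p under 0.05.

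Members varied more between mice than most features. Their median standard deviation within a diet was 0.33, against 0.196 over all features, and their median range over the 24 mice was 1.36, against 0.814. The range of 36 of the 39 members was above that median of all features. Members and features were not matched for brightness. All measured members but Mmp3 were well above background on all 24 arrays, a level that 14609 of the 22322 features reached. Diets overlapped for every member and for every other feature.

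Dcn encodes decorin, a small proteoglycan that binds collagen fibrils. Its ratio ran from -0.07 over a median of 0.34 to 0.56 in 11 No NR mice and from -0.66 over -0.11 to 0.45 in 11 Ctrl NR mice. All 11 No NR mice lay above the Ctrl NR median, and 6 Ctrl NR mice lay below the lowest No NR mouse. The mean was 0.31 ± 0.17 in No NR and -0.11 ± 0.40 in Ctrl NR mice (SD, n = 11 each), a log2 difference of 0.42 ± 0.12 (SE; 1.33-fold; limma p = 0.00221, adjusted p = 0.137). The difference had the same sign on 4 of the 5 slides and was -0.25 on the remaining one. Without Ctrl NR mouse 68 the adjusted limma p was 0.0492. The spread of Dcn was thus wider in Ctrl NR mice, whose highest values reached those of No NR mice.

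Col6a3 encodes the large alpha 3 chain of collagen VI, the precursor of the adipokine endotrophin. Its ratio ran from -1.0 over -0.08 to 0.32 in 12 No NR mice and from -1.16 over -0.72 to -0.05 in 12 Ctrl NR mice. In No NR mice 10 of 12 lay above the Ctrl NR median and 5 above every Ctrl NR mouse, while 4 were below -0.6. The means were -0.20 ± 0.47 in No NR and -0.68 ± 0.32 in Ctrl NR mice (SD, n = 12 each), a log2 difference of 0.48 ± 0.15 (SE; 1.39-fold; limma p = 0.00419, adjusted p = 0.170). With the macrophage marker mean of each mouse as a covariate the difference was 0.34 (limma adjusted p = 0.0810). Of the other collagen VI chains, Col6a1 differed by 0.19 and Col6a2 by -0.04.

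Eln encodes tropoelastin, the core of elastic fibres. Its ratio ran from -0.31 over -0.12 to 0.08 in No NR mice and from -0.46 over 0.27 to 0.75 in Ctrl NR mice. No NR mice were tightly grouped, and all 12 lay below the Ctrl NR median. Of the Ctrl NR mice, 9 lay above the highest No NR mouse and 2 below the lowest. The log2 difference was -0.32 ± 0.11 (SE; limma p = 0.00481, adjusted p = 0.179), and it was negative within each of the 5 slides. Without Ctrl NR mouse 117 the adjusted limma p was 0.0478. Eln and Dcn were the only 2 members with every No NR mouse on one side of the Ctrl NR median, a pattern that 5.24% of all features showed.

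Fn1 encodes fibronectin, the cell-binding glycoprotein on which collagen fibrils are laid down. It ran from -0.62 over 0.19 to 0.35 in No NR mice and from -0.79 over -0.23 to 0.39 in Ctrl NR mice, with 10 of 12 No NR mice above the Ctrl NR median. Its log2 difference was 0.33 ± 0.13 (SE; limma p = 0.0186, adjusted p = 0.270), and 0.26 with slide as a block (limma p = 0.0579). Lama2, the laminin alpha 2 chain, ran from -0.46 over -0.16 to 0.25 in No NR mice and from -1.12 over -0.37 to 0.16 in Ctrl NR mice. Its log2 difference was 0.31 (limma p = 0.0198, adjusted p = 0.274), which kept its sign within each of the 5 slides, and a second probe gave 0.23. The lowest 3 values of both genes came from Ctrl NR mice, and the highest values of the diets lay close together.

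Col18a1 encodes the basement membrane collagen XVIII, from which endostatin is cut. It ran from -0.42 over 0.05 to 0.21 in No NR mice and from -0.23 over 0.15 to 0.49 in Ctrl NR mice. Of 12 No NR mice, 11 lay below the Ctrl NR median, yet the log2 difference was only -0.16 ± 0.07 (SE; limma p = 0.0387, adjusted p = 0.334). Leaving out any of 8 mice raised its unadjusted p above 0.05. A second probe of the gene gave -0.04 and correlated with the first at 0.202 over the 24 mice.

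**Figure D2:**
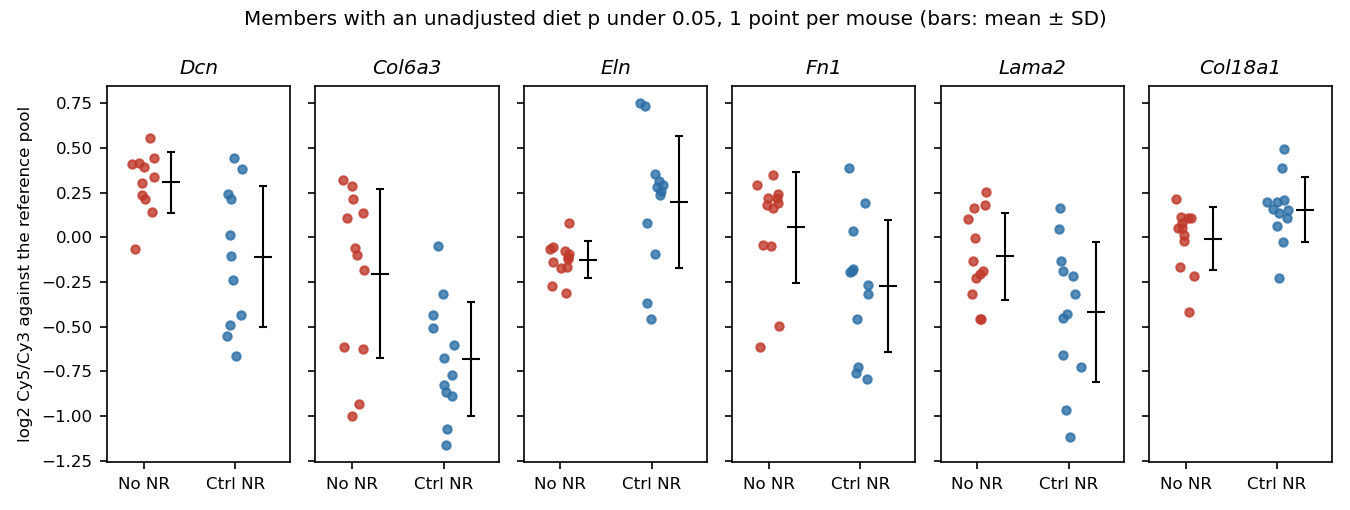
Log2 Cy5/Cy3 of each mouse for the 6 members with an unadjusted diet p under 0.05, No NR left and Ctrl NR right in each panel, 1 point per mouse, bars showing mean ± SD. Values of No NR mice lie above most Ctrl NR values for Dcn, Col6a3, Fn1 and Lama2 and below most for Eln and Col18a1, and the diets overlap in every panel. All 6 kept this direction with median centring in place of loess, where none had an unadjusted p under 0.05.

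The fibrillar collagens had a median log2 difference of 0.22, with 4 of 5 higher in No NR mice, and 0.04 with median centring. None reached an unadjusted p of 0.05. Col5a2 (0.24, p = 0.0565) came nearest, followed by Col3a1 (0.29), Col1a1 (0.22) and Col1a2 (0.17), with Col5a1 at -0.01. Col1a1 ran from -1.33 over -0.38 to -0.03 in No NR mice and from -2.0 over -0.58 to 0.37 in Ctrl NR mice. Its 95% interval of the difference was -0.28 to 0.71, which includes 0.

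The 10 basement membrane genes had a median log2 difference of 0.04, with 6 higher and 4 lower, which became -0.11 with median centring. Besides Lama2 and Col18a1 the values were 0.13 for Col4a1 and 0.04 for Col4a2, the chains of the main collagen IV network, 0.12 for Lamc1, 0.08 for Hspg2 (perlecan), 0.04 for Lamb1, -0.00 for Lama4, -0.05 for Col15a1 and -0.15 for Nid1 (nidogen 1). Col15a1 had 1 mouse far from the rest: on the probe used, that Ctrl NR mouse had 2.66 and the next Ctrl NR mouse 0.42, while No NR mice lay between -0.46 and 0.27. Without that mouse the log2 difference was 0.20. The range of this probe over the 24 mice was 3.89, against 0.717 and 0.802 for the other 2 probes of the gene. Those 2 probes gave diet differences of 0.04 and 0.07. Further probes of Nid1 gave -0.17 and -0.09, the first with an unadjusted limma p of 0.00877 in a fit over all kept probes.

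Among the interstitial proteins besides Dcn and Fn1, Lum (lumican, a proteoglycan that spaces collagen fibrils) differed by 0.51 (p = 0.103), Bgn (biglycan) by -0.02 and Sparc, a collagen chaperone outside the cell, by -0.05. Lum ran from -1.38 over 0.17 to 0.74 in No NR mice and from -2.34 over -0.71 to 0.62 in Ctrl NR mice. Its range over all 24 mice was 3.08, an 8.48-fold span. Below the lowest No NR mouse lay 3 Ctrl NR mice.

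Fbn1, the microfibril protein fibrillin 1, differed by 0.32 (p = 0.0530), and Mfap5, a microfibril-associated protein, by 0.04. The lysyl oxidases Lox, Loxl1 and Loxl2 differed by -0.08, 0.04 and -0.16, and the 2 other probes of Loxl2 by 0.10 and 0.14. A second probe of Lox gave -0.18, and a second probe of Loxl1 gave -0.07. Of the matricellular genes, Postn (periostin) differed by 0.17, Thbs1 (thrombospondin 1, an activator of latent TGF-beta) by -0.24, Tgfb1 by -0.04 and Ctgf (connective tissue growth factor, a target of TGF-beta and YAP signalling) by -0.15. None of these differences exceeded the spread between mice.

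The metalloproteinases Mmp2 (gelatinase A), Mmp3 (stromelysin 1) and Mmp14, which activates pro-Mmp2 at the cell surface, differed by 0.16, 0.34 and 0.07. The inhibitors Timp1, Timp2 and Timp3, the last bound to matrix, differed by 0.29, -0.06 and 0.05, and a second probe of Timp2 gave 0.25. Timp1 ran from -0.94 over 0.14 to 0.67 in No NR mice and from -1.03 over -0.34 to 0.71 in Ctrl NR mice. No member of either group reached an unadjusted p of 0.05 (lowest p = 0.145, for Mmp3).

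Macrophages share the fat pad with the cells that lay down matrix, and most members varied with the macrophage markers from mouse to mouse. The mean log2 ratio of 26 measured macrophage markers was -0.16 ± 0.64 in No NR mice (-1.08 to 0.62) and -0.45 ± 0.77 in Ctrl NR mice (-1.62 to 0.67; SD, n = 12 each). Of these markers 25 of 26 had a higher mean in No NR mice, where 10622 of all 22322 features did. Markers of 1 list are not independent of each other. Unadjusted limma p-values under 0.05 were found for 2 of the 26, against 13.7% of all features, and adjusted ones for none. With this mean as a covariate beside diet, the log2 differences were 0.37 for Dcn, 0.34 for Col6a3, -0.32 for Eln, 0.24 for Fn1, 0.21 for Lama2 and -0.16 for Col18a1. All 6 had an unadjusted limma p under 0.05, as did Tgfb1 at -0.18 (limma p = 0.0271), which differed by -0.04 without the covariate. No member passed the adjusted threshold, where 72 of all features did. At the unadjusted level that fit called 7 of the 39 members and 14.3% of all features.

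Across the 24 mice, 26 of 39 members were related to the macrophage mean at an adjusted limma p under 0.05 with diet in the model, 23 positively and 3 negatively. Over all features outside the marker list 25.0% were related, 15.4% positively and 9.67% negatively. The median Pearson r of the members was 0.623, against 0.0217 over all features. With median centring in place of loess, 38 members and 77.9% of all features were related to the mean, all 38 positively. By permutation, with p adjusted over the 234 relations of 39 members to 6 marker lists, 26 members were related by r and 24 by Spearman's rho.

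Lum was the member closest to the macrophage mean (r = 0.928, rho = 0.868, both with the smallest permutation p of 1e-05 that 100000 permutations can give, adjusted permutation p = 0.000117 for r and 0.000123 for rho). Its slope was 1.07 ± 0.085 (SE), that is, a change of 1 in the log2 macrophage mean went with a change of 1.07 in log2 Lum. Within diets r was 0.937 in No NR and 0.924 in Ctrl NR mice, and without the 2 mice farthest from the median it was 0.904. The 3 mice with the lowest macrophage mean, all Ctrl NR, also had the 3 lowest Lum values.

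All 3 metalloproteinases were positively related to the macrophage mean, and Mmp2 stood near Lum. For Mmp2 r was 0.924 (rho 0.901, adjusted permutation p = 0.000117 for r and 0.000123 for rho), 0.960 within No NR, 0.906 within Ctrl NR mice and 0.942 without the 2 farthest mice. Mmp2 ran from -0.84 over 0.10 to 0.56 in No NR mice and from -1.17 over -0.23 to 0.45 in Ctrl NR mice. Mmp14 had r = 0.822 (rho 0.843, with the same adjusted permutation p-values) and Mmp3 r = 0.740 (rho 0.816, adjusted permutation p = 3.05e-04 for r). Without the 2 farthest mice Mmp14 had 0.823 and Mmp3 0.735. Mmp3 is known from fibroblasts and macrophages of inflamed tissue.

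The inhibitors were split. Timp1, an inhibitor induced in inflamed fat, had r = 0.882 with the macrophage mean (rho 0.864, adjusted permutation p = 0.000117 for r and 0.000123 for rho). Within diets r was 0.963 in No NR and 0.822 in Ctrl NR mice, and without the 2 farthest mice it was 0.884. Timp2 had r = 0.623 (rho 0.594, adjusted permutation p = 0.00463 for r) and 0.605 without those mice. Timp3 ran the other way (r = -0.630, rho -0.686, adjusted permutation p = 0.00472 for r and 0.00228 for rho), a direction that turned with median centring. Its r was -0.577 within No NR, -0.735 within Ctrl NR mice and -0.662 without the 2 farthest mice.

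Fibrillar collagens were related to the macrophage mean in 4 of 5 cases, with a median r of 0.780. Col1a1 was highest (r = 0.895, rho 0.811, adjusted permutation p = 0.000117 for r and 0.000123 for rho) and Col5a1 lowest (r = 0.420, adjusted permutation p = 0.0934). Col3a1, the chain of collagen III, stood at 0.871. Without the 2 farthest mice Col1a1 had 0.851 and Col3a1 0.846. Of the collagen VI chains Col6a3 had r = 0.817 (rho 0.861, same adjusted permutation p-values), within diets 0.937 in No NR and 0.823 in Ctrl NR mice, and Col6a1 was lowest at 0.50 (limma adjusted p = 0.0558).

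Of the 10 basement membrane genes, which support adipocytes and capillaries, 3 were positively related (Lama2, Col4a1 and Col4a2), Nid1 was negatively related and 6 were not called, and their median r was 0.108. Lama2 had the highest r (0.745, rho 0.708, adjusted permutation p = 2.23e-04 for r), and 0.612 without the 2 farthest mice. Col4a1 and Col4a2 had 0.588 and 0.549 and lost the call with slide as a block, and Col4a2 also without the 2 farthest mice. Nid1 had r = -0.546 (rho -0.521, adjusted permutation p = 0.0209 for r), a direction that turned with median centring. Its r was -0.347 without the 2 farthest mice, and -0.540 over the 16 mice with a macrophage mean above -0.87. Nid1 lost the call without the 2 farthest mice, with no background correction and with the deposited value table. Further probes of Nid1 correlated with the one used at only 0.372 and -0.178. Their relation to the macrophage mean was not tested.

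Tgfb1 had r = 0.856 (rho 0.888, adjusted permutation p = 0.000117 for r and 0.000123 for rho). Within diets r was 0.960 in No NR and 0.835 in Ctrl NR mice, and without the 2 farthest mice 0.867. Ctgf, also known as Ccn2, ran the other way (r = -0.669, rho -0.723, adjusted permutation p = 0.00258 for r and 6.69e-04 for rho; limma adjusted p = 8.75e-04), a direction that turned with median centring. Its r was -0.678 within No NR, -0.651 within Ctrl NR mice and -0.618 without the 2 farthest mice. Ctgf ran from -1.17 over -0.21 to 0.77 in No NR mice and from -1.18 over 0.04 to 0.80 in Ctrl NR mice. The ligand and this gene known as its target were thus opposed across the mice of both diets under loess.

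In the elastic fibre group Mfap5 (r = 0.666) and Fbn1 (0.651) were related and Eln (-0.175) was not called. Among the oxidases Loxl1 (0.741) and Loxl2 (0.450) were related and Lox (0.412, limma adjusted p = 0.0623) was not called. Loxl2 lost the call with slide as a block. Sparc had the lowest r of the interstitial group (-0.326, limma adjusted p = 0.322). Dcn, the member with the lowest diet p, was not called either (r = 0.463, rho 0.238), and its r was -0.265 within No NR and 0.734 within Ctrl NR mice.

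**Figure D3:**
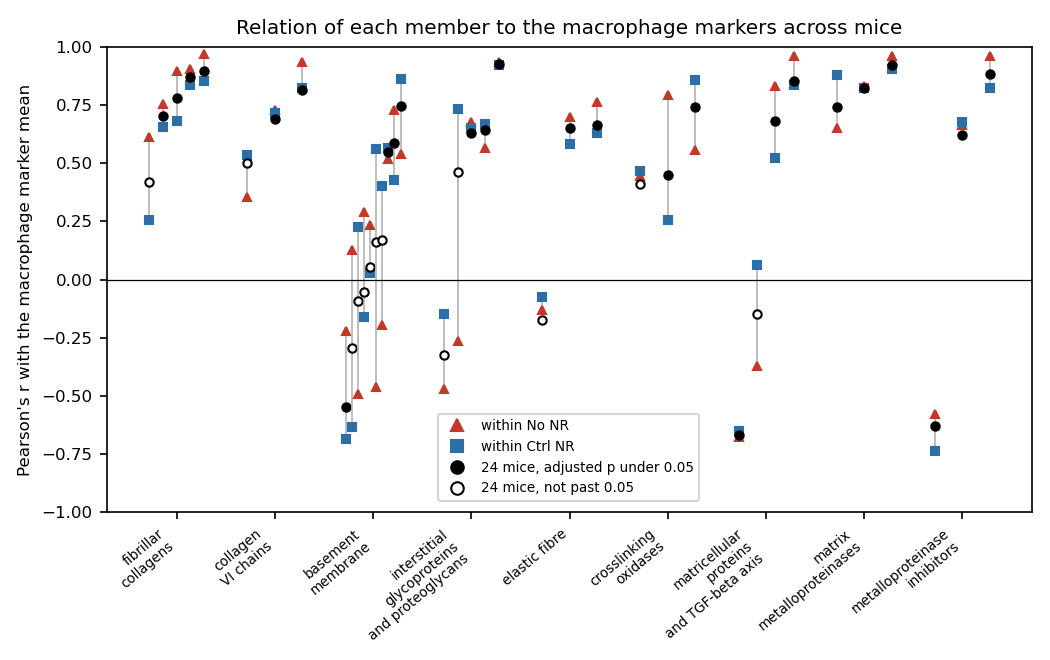
Pearson's r of each member with the macrophage marker mean, grouped by role and ordered by r within a role. Triangles are r within 12 No NR mice, squares r within 12 Ctrl NR mice, and circles r over 24 mice, filled where the limma adjusted p is under 0.05. Of 39 members 26 are filled, 23 above and 3 below 0, and basement membrane genes range from -0.546 to 0.745. With median centring in place of loess all 3 negative ones turn positive.

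With slide means removed r with the macrophage mean was 0.932 for Lum, 0.922 for Mmp2, 0.892 for Col1a1, 0.870 for Timp1, 0.856 for Tgfb1, -0.644 for Ctgf and -0.766 for Timp3.

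The macrophage mean was spread without a wide gap over the 24 mice, with a largest gap of 0.38 in a range of 2.29. Within No NR it fell into 4 mice between -1.08 and -0.87 and 8 mice between -0.01 and 0.62, so the r within No NR mice mostly sets those 4 against those 8. The 16 mice with a macrophage mean above -0.87, the lower edge of that gap, 8 of each diet, give a check with no test. Over them r was 0.878 for Mmp2, 0.766 for Lum, 0.752 for Mmp3, 0.668 for Timp1, 0.666 for Col3a1, 0.631 for Tgfb1, 0.606 for Col6a3 and 0.480 for Col1a1. It was -0.609 for Ctgf and -0.508 for Timp3. Of the 39 members 26 had a positive r over these mice, but their median was 0.13, against -0.02 over all features. The median over the set thus rested largely on the 8 mice with low macrophage means, while Mmp2, Lum and Mmp3 stayed above 0.7 without them.

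**Figure D4:**
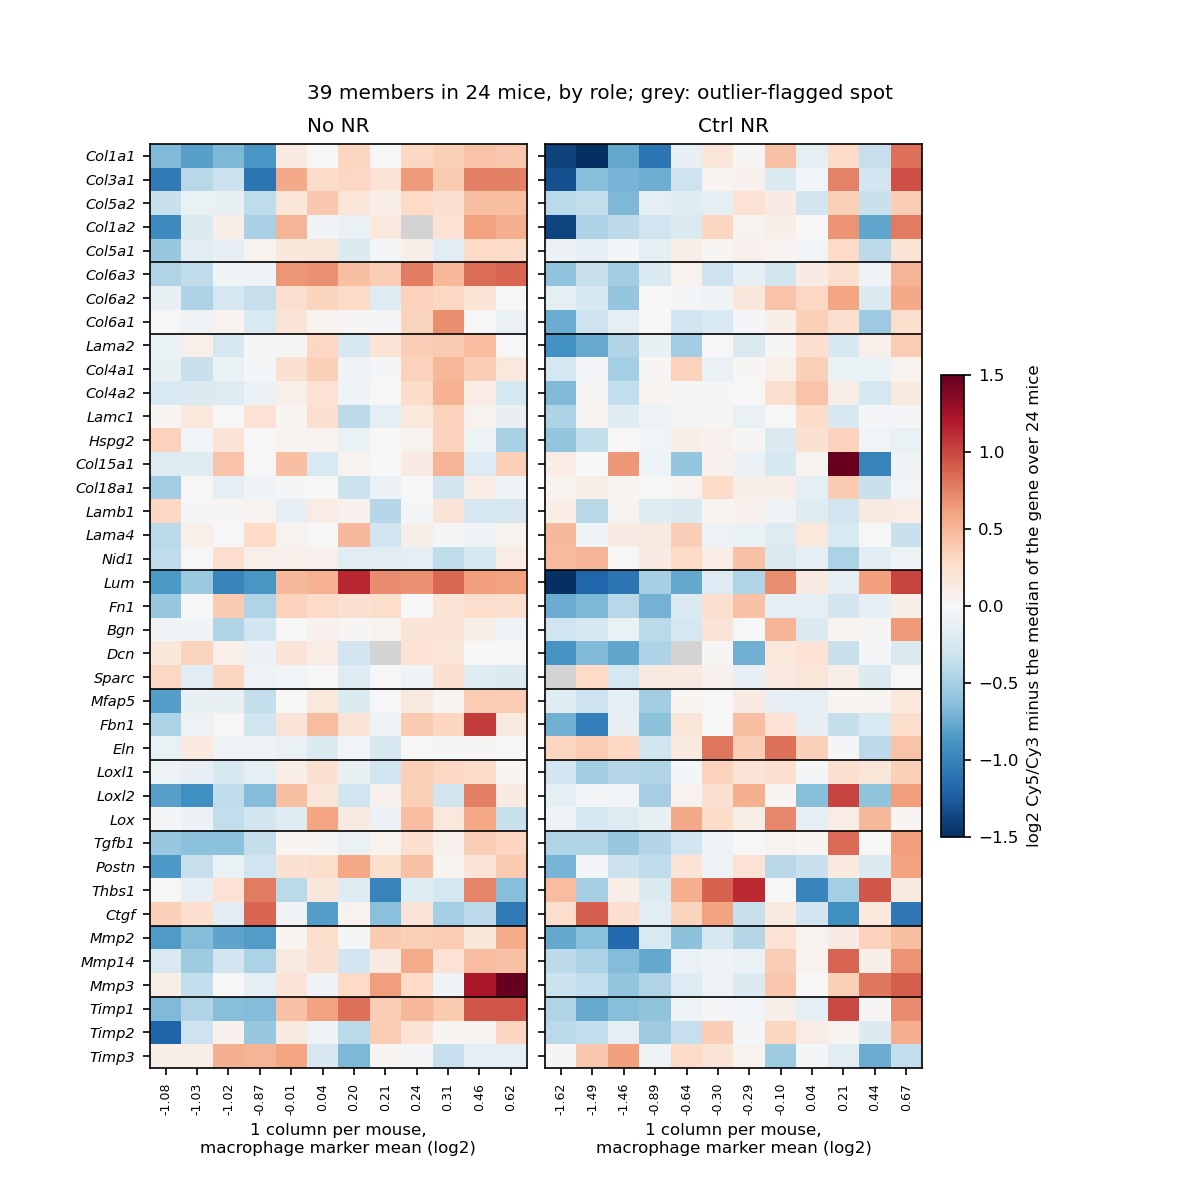
Log2 Cy5/Cy3 of the 39 members, each minus its median over 24 mice, in 12 No NR mice (left) and 12 Ctrl NR mice (right). Rows are genes by role and columns are mice in order of the macrophage marker mean, which is printed under each column; grey marks an outlier-flagged spot. Fibrillar collagens, Lum, Tgfb1, Mmp2 and Timp1 are low (blue) in the columns with the lowest means of both diets, while Ctgf and Timp3 are mostly high there; with median centring the r of Ctgf and Timp3 turns positive.

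Other cell types were read the same way. The macrophage mean was opposed to the adipocyte mean (r = -0.946 over 24 mice) and the endothelial mean (r = -0.813) and ran with the stromal progenitor mean (r = 0.562), so the relations below share 1 axis of variation; with median centring the same r values were 0.318, 0.572 and 0.841. Of the 39 members 27 were related to the adipocyte mean (3 positively and 24 negatively), against 25.4% of all features (10.1% positively and 15.3% negatively). To the endothelial mean 16 were related (2 positively and 14 negatively), against 21.9% of all features (9.12% positively and 12.8% negatively). With median centring these became 33 and 38 members, all positive, among 79.1% and 83.6% of all features. Timp3 had the highest positive r with the endothelial mean (r = 0.803, rho 0.835, adjusted permutation p = 0.000117 for r and 0.000123 for rho), with 0.801 within No NR, 0.947 within Ctrl NR mice and 0.802 without the 2 farthest mice. Ctgf was the other member positively related to it (r = 0.611, rho 0.631, adjusted permutation p = 0.00628 for r). The endothelial mean was -0.14 ± 0.19 in No NR and -0.00 ± 0.23 in Ctrl NR mice (SD, n = 12 each). Of its 21 markers 17 had a lower mean in No NR mice, where 11700 of all 22322 features did. An unadjusted limma p under 0.05 was found for 6 of them, against 13.7% of all features in either direction.

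The stromal progenitor mean, from the cells that make interstitial collagen, was related to 5 members at an adjusted limma p under 0.05, against 1.45% of all features. They were Fbn1 (r = 0.723), Lama2 (0.697), Timp2 (0.645), Loxl1 (0.636) and Bgn (0.625), and none passed with slide as a block or without the 2 farthest mice. No member was related to the smooth muscle and pericyte mean, against 0.224% of all features, or to the mesothelial mean, against 0.296%. With the progenitor mean as a covariate the 6 diet differences kept their sign and an unadjusted limma p under 0.05. The part of the endothelial and other cell types in the diet differences was not tested.

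With diet means removed, members also varied with each other. The 10 pairs of fibrillar collagens had a median r of 0.775 (0.521 to 0.884), and the 3 pairs of collagen VI chains 0.667. The 45 pairs of basement membrane genes had a median of -0.02 (-0.578 to 0.776), with pairs on both sides of 0. Between groups the median was 0.678 for fibrillar collagens with collagen VI chains, 0.650 with TIMPs, 0.607 with metalloproteinases and 0.186 with basement membrane genes. Over all 741 member pairs it was 0.283, and 31.8% reached 0.5. Among pairs of all features the median was 0.007 and 4.68% reached 0.5. The values share arrays, normalization and the macrophage axis, and no test was made.

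The closest pairs joined a growth factor, a protease and an inhibitor: Tgfb1 with Mmp14 (r = 0.934) and Tgfb1 with Timp1 (0.923), whose promoters are printed above. Lum followed Mmp2 (0.901), and Col3a1 followed Timp1 (0.900), Tgfb1 (0.886), Col6a3 (0.886) and Col1a2 (0.884), its partner in interstitial fibres. Col4a1 and Col4a2, with their shared start region, had 0.776, the highest value among basement membrane pairs, though Col4a2 was closer to Col6a1 (0.823). Col5a1 was closest to Loxl2 (0.801). The most opposed pairs were Col5a2 with Ctgf (-0.744), Lum with Timp3 (-0.713) and Col3a1 with Ctgf (-0.705), under loess. With median centring the median over member pairs was 0.863 and over basement membrane pairs 0.902, so the separation of the basement membrane genes depends on that choice.

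**Figure D5:**
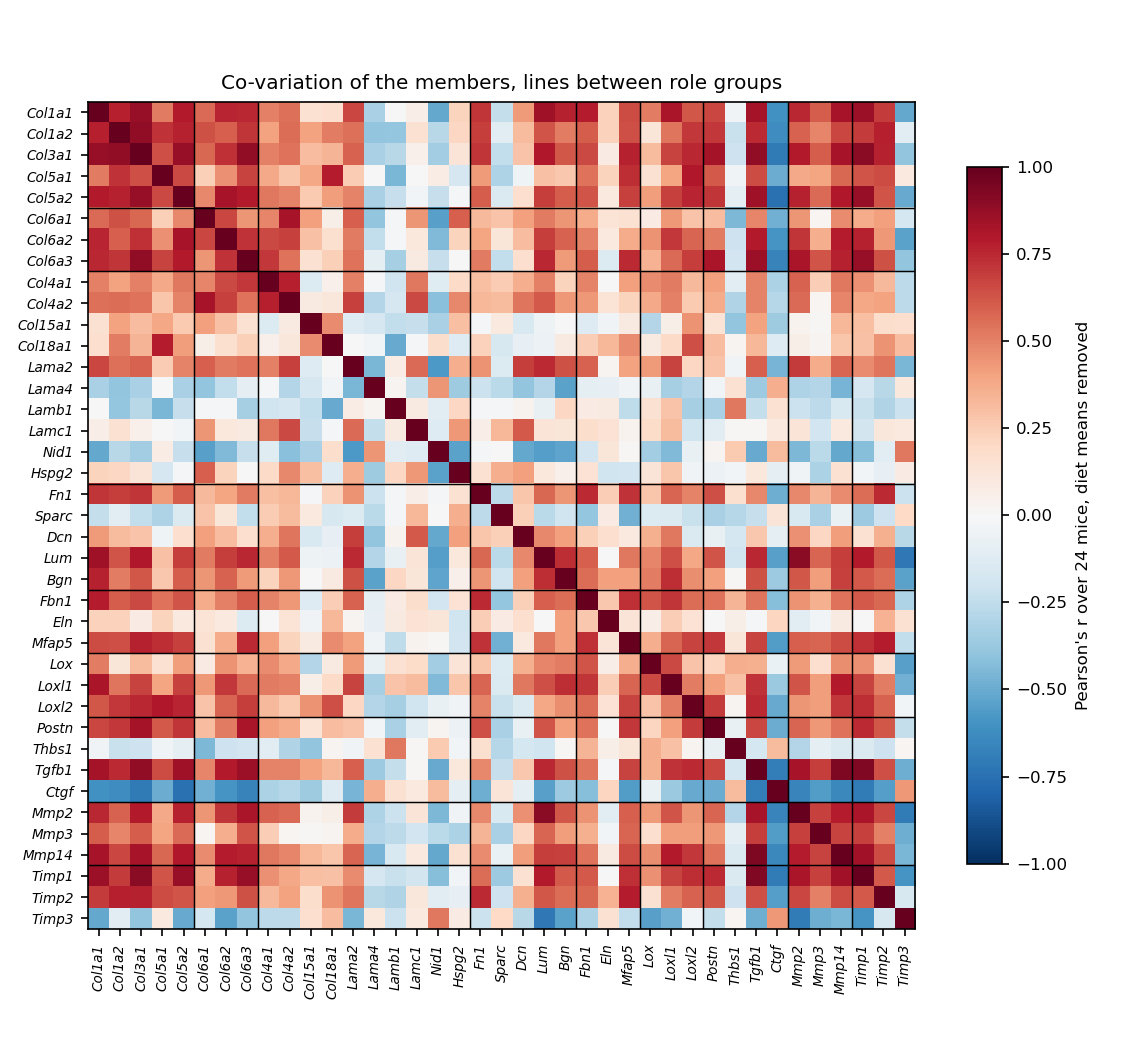
Pearson's r between members over 24 mice with diet means removed, lines separating the role groups. Fibrillar collagens, Col6a3, Lum, Tgfb1, Mmp2, Mmp14 and Timp1 form the red block, and basement membrane genes are mixed, with r from -0.578 to 0.776 among themselves. Ctgf is blue against the block. Timp3 is blue against most of it, but had -0.113 with Col1a2 and 0.101 with Col5a1. Under median centring the median r over member pairs is 0.863, against 0.283 here.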

How the data were processed

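RNA of epididymal fat from 24 mice was hybridised to 2-colour arrays of 62976 spots. Per the file headers, the deposited files of the scanner give linear spot intensity and flags of 0 or 1, and were made by Agilent Feature Extraction 10.7.3.1 for probes designed on mm9. The authors' deposited value table holds log2 values that followed each array's own log2 Cy5 signal (r at least 0.990), with a median of 8.04 in every column, so it is read as log2 Cy5 intensity; its normalization is not given in the sources used here. The scanner files also hold the deposited processed intensity, already background-subtracted and dye-normalized. Both served as alternatives.

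Median spot signals were corrected by normexp (offset 50) and normalized by loess within arrays in limma 3.58.1 (R 4.3.3). Outlier-flagged spots were left out, spots of a probe were averaged, and 27235 of 55681 probes matched 1 RefSeq symbol by unversioned accession (GRCm38.p6, names and promoters only). Ctgf was matched through its newer name. The brightest kept probe stood for a gene, and probes that disagreed are named with their gene. Besides those, Sparc and Hspg2 had a second probe that correlated with the first under 0.4. For Nid1 this held for each of its further probes. The diet fit was No NR minus Ctrl NR over 24 arrays. Relations used limma with diet and 1 marker mean at a time, and r and rho with 100000 permutations, two-sided, over 24 mice. The lowest diet p and the highest and lowest macrophage r of each role, and the 2 lowest diet p-values of each pathway list, decided which genes are described. Members, marker lists and pathway lists were chosen with earlier results of these data known, so counts over them carry no test. Arrays have no read depth: the number of mice limits precision. The labels number 1 mouse per array, so p-values cover the spread between mice. The diet and relation fits were tested on simulated data. Figures were drawn with matplotlib 3.10.9 under Python 3.11.15.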

Additional observations from a re-analysis of the deposited data

How the results depend on the processing

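No paired analysis was possible because the diets share no animal number. No feature passed an adjusted limma p of 0.05 (3056 at an unadjusted p under 0.05); 2 passed with a normexp offset of 10, 3 among probes well above background on all 24 arrays, 124 with array weights and 72 with the macrophage mean as a covariate. Leaving out 1 mouse gave 0 to 215 such features (among Ctrl NR mice, 203 with mouse 117 left out, 215 with 68, 76 with 104, 32 with 75 and 9 with 77) and 2584 to 3817 at the unadjusted level. It gave 5 to 9 members at the unadjusted level and 0 to 1 at the adjusted one, Eln without Ctrl NR 117 and Dcn without Ctrl NR 68. Array weights gave 10 members at the unadjusted level, where 3919 of all 22322 features passed, against 3056 without weights. Median centring gave 323 features and 0 members at the unadjusted level, with 36.5% of those features higher in No NR mice, against 48.9% with loess and 59.6% with no background correction. It also moved the basement membrane median to -0.11. Fn1 and Dcn missed an unadjusted p of 0.05 with the processed signals and the deposited table. With median centring 33 members were related to the adipocyte mean and 38 to the endothelial mean, all positively, among 79.1% and 83.6% of all features. To the progenitor, smooth muscle and mesothelial means 39, 38 and 35 members were related, among 84.7%, 82.9% and 68.5% of all features. The progenitor count was 0 with slide as a block, without the 2 farthest mice and with processed signals. Median r was 0.863 over member pairs, 0.924 over fibrillar and 0.902 over basement membrane pairs with median centring, 0.836 over fibrillar pairs with processed signals, and 0.348 over member and 0.0943 over basement membrane pairs with the deposited table. Leaving out 1 mouse gave 0.263 to 0.304, 0.737 to 0.793 and -0.03 to 0.04 for the same 3 sets of pairs. Macrophage-related members numbered 20 positive and 3 negative with slide as a block, 27 and 3 with processed signals, and 25 and 2 with the deposited table. Of all features, 15.2% were positive and 10.2% negative with slide as a block. These shares were 17.0% and 17.6% with processed signals, and 14.1% and 21.5% with the deposited table. The causes of these changes were not tested.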

Other observations

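Beyond the 40 genes, 163 of 203 listed genes of the matrix pathway were measured, and none differed between diets at an adjusted limma p under 0.05. Of 18 matrix receptors, 13 had a lower mean in No NR mice, with a median log2 difference of -0.09, against -0.01 over all features. At an unadjusted p under 0.05, 5 were lower and 0 higher, where 7.00% of all features were lower. Ddr1, a collagen-binding receptor kinase, differed by -0.44 (limma p = 0.00183, unadjusted) and the integrin chain Itga3 by -0.22 (unadjusted limma p = 0.00442). Of 22 TGF-beta pathway genes, 14 were lower and 3 of them passed that level, with Ski, a repressor of SMAD signalling, at -0.21 and Smad3, a mediator of it, at -0.17.

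Of 27 collagen folding and processing enzymes 15 were higher and 12 lower, and 2 were lower at the unadjusted level, against 7.00% of all features: Serpinh1, the collagen chaperone HSP47, at -0.29 and P4ha2, a prolyl hydroxylase of collagen, at -0.17. Serpinh1 was not called against the macrophage mean (r = -0.487), although 10 of the 27 enzymes were positively and 0 negatively related to it by limma, against 15.4% and 9.67% of all features. Of 17 other collagen chains 7 were higher and 10 lower, with Col20a1 at -0.17 (unadjusted limma p = 0.0115) and Col6a5 at 0.45 (p = 0.0796). Of 14 other basement membrane genes 7 were higher and 7 lower, with Lamb2 at -0.23 and Smoc1 at -0.31. Of 38 proteoglycans, fibulins and microfibril genes 19 were higher and 19 lower, with Spon1 at 0.20 and Fbln1 at -0.28. Of 27 other proteases and inhibitors 14 were higher and 13 lower, with Mmp15 at -0.19 and Serpine2 at 0.25.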
